A study of Mus musculus with 10 samples.

Results

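The genes described here are 9 transcription factors and 1 receptor known as regulators of the luminal and milk-producing (alveolar) cells of the mammary gland: Elf5, Ehf, Elf3, Gata3, Kit, Grhl2, Ovol1, Cebpb, Stat5a and Stat5b. They were taken by symbol from the first column of the deposited comparison tables, and all 10 of them were found among the 24000 genes listed. The rule uses no measured value. The RNA came from mammary epithelial cells of female mice, sorted by flow cytometry (FACS) from animals called Bptf WT and Bptf KO after the chromatin remodelling subunit Bptf.

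The 10 libraries formed 5 groups of 2: luminal cells of Bptf WT mice, luminal cells of Bptf KO mice, myoepithelial cells (headed basal in the tables) of either genotype, and a population labelled Bsecs, which was taken from Bptf KO mice only. Mice of every group had received tamoxifen, 15 mg/kg of body weight in total, before the cells were isolated. The labels do not spell out Bsecs, and the sources used here do not give the Bptf allele, the Cre driver or the age of the mice. The libraries titled KO luminal carry a source label of Bptf WT mice, so their genotype label is in conflict. The tables give 1 mean per group and comparison, and those means come from 5 distinct columns of whole read counts. The myoepithelial columns are named WT and KO in opposite ways by different tables, so they are called by their totals, the smaller basal and the larger basal column, and no genotype is read from them. Every difference below is a difference between sequenced columns with no replicate check. A given interval is an exact 95% interval that covers counting error only.

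Column totals ran from 2036681 to 3840462 counts, with 11788 to 13953 genes detected. The ribosomal RNA gene Rn45s took from 9.76% to 32.2% of the counts, with the highest share in Bsecs. Bptf itself had 640 counts in WT luminal, 1018 in KO luminal, 645 in Bsecs, 420 in the smaller basal and 780 in the larger basal column, which does not check the deletion, because the deleted part is not given. Luminal markers summed to 59641 and 77549 in the luminal columns, 60064 in Bsecs, 4625 in the smaller basal and 4548 in the larger basal column. Basal markers summed to 1554, 1947, 18914, 51596 and 30057 in the same order. In Bsecs these sums rest on few genes: Cldn4 gave 39051 of the luminal sum, and the keratins Krt14, Krt17 and Krt5 gave 8944, 5007 and 3307 of the basal sum. Some contractile and surface basal markers were low in Bsecs, with Mme at 1.05, Actg2 at 2.11, Cnn1 at 4.21 and Acta2 at 144. Of the 14 basal markers, 8 were at least 4-fold lower in Bsecs than in either basal column. Of all genes with a mean of at least 50, 7.45% were that much lower than in the larger and 8.11% than in the smaller. The surface marker Itga6 was not low, with 1152 in Bsecs beside basal levels of 1570 (smaller column) and 1720 (larger column). Trp63 had 100 in Bsecs, near its level of 109 for the smaller basal column and below 375 for the larger. These sums and all levels below are on a common scale, the count divided by the median-of-ratios factor of its column.

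ELF5, EHF and ELF3 are ETS-family transcription factors of epithelia, and ELF5 is known as the factor that drives luminal progenitors towards the alveolar fate. KIT is the receptor tyrosine kinase for stem cell factor and marks luminal progenitors. GATA3 maintains luminal identity, GRHL2 and OVOL1 sustain the epithelial state, CEBPB is required for ductal and alveolar development, and STAT5A and STAT5B carry the prolactin signal to milk genes. In bulk samples such as these, fewer cells of a type and less RNA per cell cannot be told apart.

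Elf5, Elf3 and Kit share a pattern of high luminal and low basal values, so the bases before their starts are shown. The sequences are from RefSeq (GRCm38.p6), whose coordinates differ from those of mm9, the build of the deposited data. Each runs over the 250 bases before the most upstream start listed, 5′ to 3′ on the strand of the gene. Capitals mark GGAA, the core of the ETS site, or its reverse complement TTCC. The Elf5 stretch is at chr2:103411848-103412097 on the plus strand, that of Elf3 at chr1:135258473-135258722 on the minus strand and that of Kit at chr5:75574737-75574986 on the plus strand.
Elf5: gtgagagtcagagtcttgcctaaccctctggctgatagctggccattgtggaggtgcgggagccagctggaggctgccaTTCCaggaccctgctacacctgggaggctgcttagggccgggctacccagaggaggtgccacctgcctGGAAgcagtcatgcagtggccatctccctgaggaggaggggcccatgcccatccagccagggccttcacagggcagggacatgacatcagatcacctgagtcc
Elf3: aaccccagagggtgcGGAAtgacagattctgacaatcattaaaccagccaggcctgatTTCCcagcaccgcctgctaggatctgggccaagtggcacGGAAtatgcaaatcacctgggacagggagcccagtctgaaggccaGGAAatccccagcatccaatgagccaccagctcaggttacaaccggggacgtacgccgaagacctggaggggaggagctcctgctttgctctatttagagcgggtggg
Kit: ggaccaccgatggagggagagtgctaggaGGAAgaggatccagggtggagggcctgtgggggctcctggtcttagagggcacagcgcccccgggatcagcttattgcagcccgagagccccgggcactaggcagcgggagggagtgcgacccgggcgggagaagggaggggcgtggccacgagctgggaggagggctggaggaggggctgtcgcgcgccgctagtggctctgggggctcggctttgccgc

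The Elf5 stretch holds 2 of these cores, the Elf3 stretch 4 and the Kit stretch 1. A core so short is common: 93.4% of the 32851 RefSeq promoter stretches of this length held at least 1 on either strand, with a median of 3. A CEBP motif, TTGCNNAA, occurred 1 time in the Elf5 stretch and in 9.56% of all stretches. The STAT motif TTCNNNGAA (in 7.02% of all stretches), the GATA motif AGATAA (9.99%) and the GRHL motif AACCGGTT (0.116%) had no match on either strand in the stretches of the 7 genes that RefSeq's table held. Ehf, Grhl2 and Ovol1 had no entry.

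The ETS factors Ehf and Elf3 were present in luminal cells and nearly absent from basal cells. Ehf had 245 counts in WT luminal, 371 in KO luminal, 135 in Bsecs and 0 in either basal column. On the common scale its level was 219 in WT luminal, 268 in KO luminal and 142 in Bsecs. The counting interval of its count of 0 reached up to 4.90 in the smaller basal and 3.55 in the larger basal column. Bsecs thus sat with the luminal columns for Ehf, at a lower level. Elf3 measured 401 in WT luminal, 394 in KO luminal, 78.0 in Bsecs, 2.66 in the smaller basal and 13.5 in the larger basal column. For Elf3, Bsecs lay between the luminal and the basal columns. The Elf3 order of WT luminal and KO luminal was within counting error (ratio 1.02, 0.896 to 1.15), and every later step was apart. In both luminal columns Elf3 counts outnumbered Ehf counts, 449 to 245 and 545 to 371. In Bsecs the order of the counts turned, with 74 Elf3 counts to 135 Ehf counts (ratio 0.548, 0.407 to 0.733). Ehf has the longer exons, and per kilobase of exon Elf3 stayed above Ehf in Bsecs, at 37.2 against 28.3.

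Elf5 and Kit, both tied to luminal progenitors, were low but followed the same division. Elf5 had 27 counts in WT luminal, 48 in KO luminal, 1 in Bsecs, 0 in the smaller basal and 4 in the larger basal column. Kit had 67 counts in WT luminal, 42 in KO luminal, 0 in Bsecs, 3 in the smaller basal and 0 in the larger basal column. Neither gene had more than 4 counts outside the luminal columns, so the order of Bsecs and the basal columns was within counting error for both. Between the luminal columns, the Elf5 counts did not separate (ratio of KO to WT luminal on the common scale 1.44, 0.881 to 2.40), whereas Kit was 1.97-fold higher in WT luminal (1.32 to 2.97). For every Elf5 count there were 9.07 Ehf counts in WT luminal and 7.73 in KO luminal (6.09 to 14.1 and 5.71 to 10.7). In Bsecs there were 135 Ehf counts to 1 of Elf5 (23.8 to 5371). The Bsecs column therefore kept Ehf and lacked detectable Kit.

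**Figure D1:**
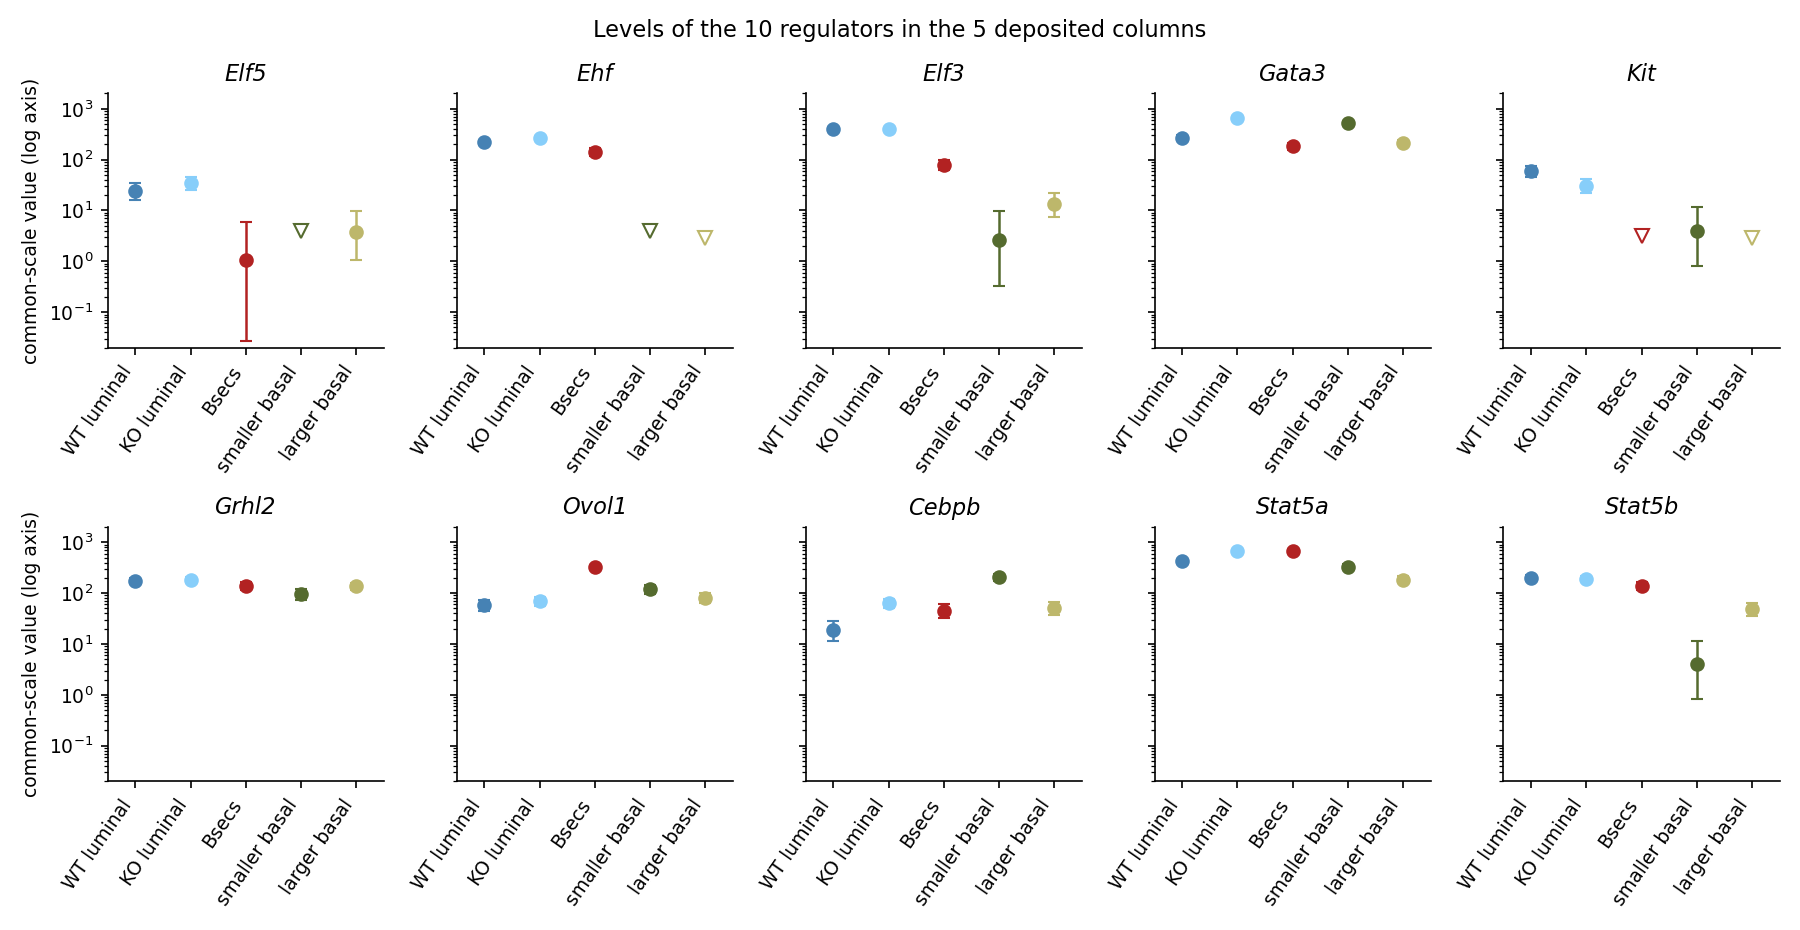
Level of each of the 10 genes on the common scale (log axis) in the 5 deposited columns. Points are single columns, bars are exact 95% counting intervals, and open triangles stand at the limit that a count of 0 allows. Ehf reads 219 and 268 in the luminal columns and 0 in both basal columns, while Grhl2 stays between 95.6 and 181 in all 5.

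Gata3 did not divide luminal from basal cells. Its level was 272 in WT luminal, 667 in KO luminal, 182 in Bsecs, 530 in the smaller basal and 217 in the larger basal column. One luminal and 1 basal column were therefore high, and the other luminal, the other basal and the Bsecs column were low. Only the lowest neighbours, the larger basal column and Bsecs, were within counting error of each other (ratio 1.19, 0.974 to 1.46). Per kilobase of exon, Gata3 had the highest level of the 10 genes in KO luminal, at 194, and in both basal columns, at 154 and 63.3.

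Cebpb was lowest in WT luminal and highest in the smaller basal column. Its level was 18.7 in WT luminal, 62.9 in KO luminal, 45.3 in Bsecs and 207 in the smaller basal column. The larger basal column had 52 counts of it against 156 in the smaller. KO luminal, the larger basal column and Bsecs followed each other within counting error. The smaller basal column stood 3.29-fold above the next (2.52 to 4.33). Exons of Cebpb overlap those of Tmem189 on the opposite strand over 312 bases in GENCODE M21, and the sources used here do not give the strand setting of the counting, so a part of these reads may belong to either gene.

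Grhl2 was the most even of the 10 genes across the columns, with levels of 175 in WT luminal, 181 in KO luminal, 137 in Bsecs, 95.6 in the smaller basal and 137 in the larger basal column. Its highest value was 1.89-fold its lowest, against a range of 151-fold for Elf3. The luminal columns did not differ beyond counting error (ratio 1.03, 0.853 to 1.25), nor did Bsecs and the larger basal column (1.0, 0.784 to 1.28). Which column ranked highest depended on the scale.

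Ovol1, a zinc finger repressor of mesenchymal genes, was highest in Bsecs. It measured 58.0 in WT luminal, 70.1 in KO luminal, 324 in Bsecs, 118 in the smaller basal and 80.8 in the larger basal column. It was the only one of the 10 genes with its highest level in Bsecs on this scale (with TMM factors Stat5a was highest there too), and that level was 2.75-fold above the next column (2.16 to 3.52). The larger basal and both luminal columns followed each other within counting error. Exons of Ovol1 overlap the pseudogene Gm31166 on the opposite strand over 690 bases, and 23.0% of its 50-base windows are shared with another gene, so its reads are uncertain to that extent. Elf3, Gata3 and Grhl2 overlap antisense transcripts over 162, 155 and 169 bases of exon. Stat5a overlaps the protein-coding gene Stat3 on the opposite strand over 72 bases of exon, and Elf5, Ehf, Kit and Stat5b overlap none.

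The paralogs Stat5a and Stat5b differed in where they were expressed. Stat5a measured 429 in WT luminal, 677 in KO luminal, 673 in Bsecs, 332 in the smaller basal and 185 in the larger basal column. KO luminal and Bsecs did not separate for Stat5a (ratio 1.01, 0.908 to 1.11). Stat5b measured 202 in WT luminal, 194 in KO luminal, 139 in Bsecs, 3.98 in the smaller basal and 48.1 in the larger basal column. Stat5a was thus present in every column, while Stat5b had 3 counts in the smaller basal column against 250 of Stat5a. Per kilobase of exon, Stat5a read 105 in WT luminal and 164 in Bsecs, and Stat5b read 36.4 and 25.1 in those columns.

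Counts of Stat5a made up 68.0% of the counts of the pair in WT luminal (64.5% to 71.5%). The share was 77.7% in KO luminal (75.3% to 80.1%), 82.9% in Bsecs (80.0% to 85.5%) and 79.3% in the larger basal column (73.7% to 84.3%). It reached 98.8% in the smaller basal column (96.6% to 99.8%). WT luminal had the lowest Stat5a share and the smaller basal column the highest, and their intervals touch no other column's. The share of a pair does not depend on the scale of the column. Reads in the 72 exon bases where Stat5a overlaps Stat3 may belong to either gene, as the strand setting is not given.

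**Figure D2:**
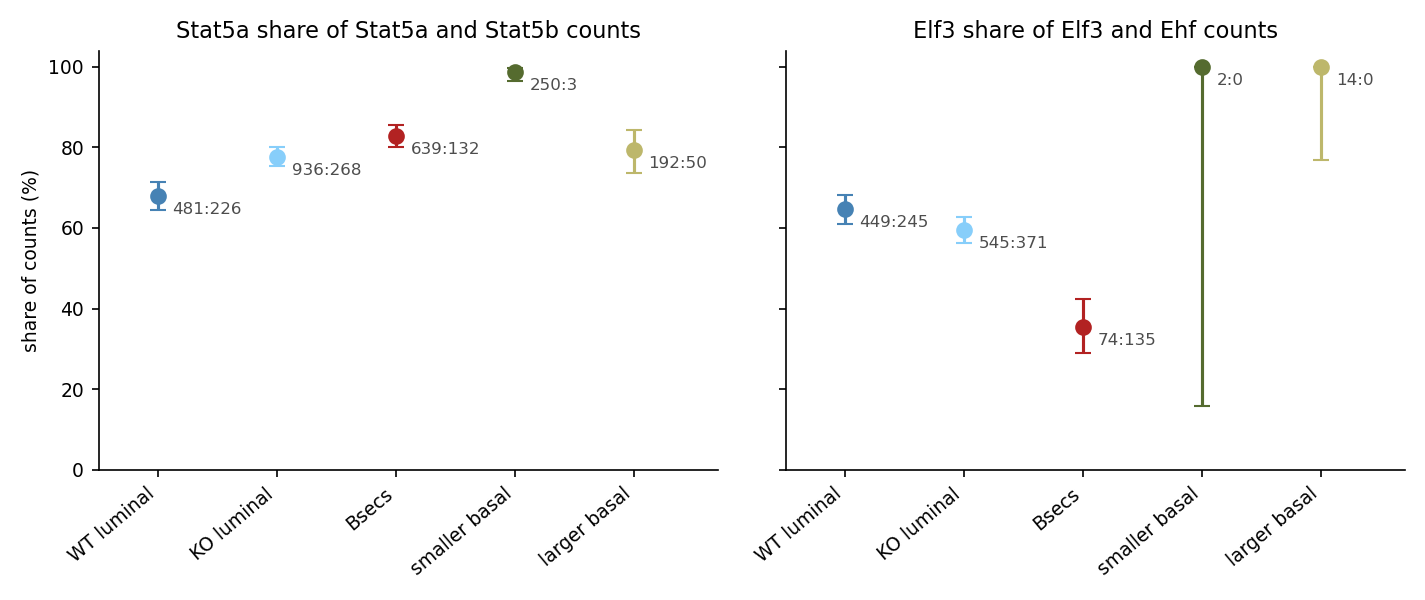
Share of Stat5a among Stat5a and Stat5b counts (left) and of Elf3 among Elf3 and Ehf counts (right), in percent, in the 5 columns. Points carry the counts of both genes and bars are exact binomial 95% intervals. The Stat5a share runs from 68.0% in WT luminal to 98.8% in the smaller basal column, and the Elf3 share falls to 35.4% in Bsecs, while the basal columns hold only 2 and 14 counts of that pair.

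Reads can be split between these paralogs only where their sequences differ. The coding sequences, 2391 bases for Stat5a and 2358 for Stat5b in GENCODE M21, were identical at 90.8% of 2291 aligned bases, with an identical run of 324 bases. Of the 3556 windows of 50 bases in the Stat5a transcript, 630 (17.7%) also occur in another gene, nearly all of them in Stat5b. The stretch of 60 coding bases in which they are least alike, at positions 85 to 144 counted from the A of the start codon, is shown because reads there can tell the genes apart. Capitals mark the bases that differ, and 41 of the 60 are the same.
Stat5a: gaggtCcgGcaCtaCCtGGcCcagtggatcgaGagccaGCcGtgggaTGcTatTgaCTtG
Stat5b: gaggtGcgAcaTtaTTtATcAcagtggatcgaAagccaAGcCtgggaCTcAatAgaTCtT

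Set against the whole transcriptome, 3 of the 10 genes had both luminal columns at least 4-fold above both basal columns with a mean level of at least 50, namely Ehf, Elf3 and Stat5b. Of all 6494 genes with that mean, 6.28% met the rule. The lowest luminal value exceeded the highest basal value 54.9-fold for Ehf, with its basal counts of 0 set to 3, 29.3-fold for Elf3 and 4.03-fold for Stat5b. Elf5 and Kit met the fold, at 6.05-fold and 7.62-fold, but not the minimum level. Stat5a and Grhl2 were also higher in both luminal columns, by only 1.29-fold and 1.28-fold at the nearest values. With totals in place of the median-of-ratios scale, Stat5b fell short of 4-fold and the count was 2. Ovol1 had both basal columns above both luminal ones, by 1.15-fold at the nearest values, while Gata3 and Cebpb overlapped. Pairs of columns set against each other allow no permutation p under 0.333, so no test is given. None of the 10 genes was at least 4-fold higher in both basal columns, a rule met by 4.22% of all genes.

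KO luminal and WT luminal were within 1.5-fold of each other for 6 of the 10 genes. On the scale of the authors' deposited table, Gata3 had 342 in WT luminal and 823 in KO luminal, which is 2.41-fold higher in KO luminal (2.11 to 2.75). Cebpb had 23.5 and 77.7, 3.30-fold higher (2.03 to 5.60), and Stat5a had 539 and 835, 1.55-fold higher (1.39 to 1.73). Kit had 75.1 and 37.5 and was 2.00-fold lower in KO luminal (1.34 to 3.02). Ehf was 1.21-fold higher in KO luminal (1.02 to 1.42). For Elf5, Elf3, Grhl2, Ovol1 and Stat5b the counting interval of the fold included 1. None of the 10 genes reached 4-fold, against 4.14% of all genes tested by that rule (2.31% higher and 1.84% lower), and 9 of them had the mean of at least 50 that the rule asks for. Their median log2 fold, of values plus 1, was 0.26 beside 0.10 for all genes.

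In the authors' deposited table for these columns the smallest p-value of the 10 genes was 0.0780, for Gata3, and its adjusted value was 1 (DESeq p-values with Benjamini-Hochberg adjustment). No member passed an adjusted p of 0.05, and 0.0882% of all genes did. None passed it unadjusted, a threshold that 3.74% of all genes passed. edgeR's exact test with an assumed dispersion of 0.16 also called none of the 10, and called 1.53% of all genes.

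Between the basal columns, Cebpb showed the greatest difference among the genes at a mean of 50 or more, with deposited values of 185 in the smaller and 43.9 in the larger column, or 4.2-fold (3.05 to 5.87). It was the 1 member past 4-fold, a rule that 5.75% of all genes met (3.56% higher in the smaller column and 2.19% lower), and with each of the 3 other scales it was below 4-fold, so the count became 0. Gata3 was 2.47-fold higher in the smaller column (2.09 to 2.92), Stat5a 1.82-fold (1.5 to 2.21) and Ovol1 1.48-fold (1.09 to 2.02). Grhl2 was 1.41-fold lower there (1.05 to 1.90). Stat5b, with 3 and 50 counts, was 11.9-fold lower in the smaller column (3.85 to 59.7), and Elf3, with 2 and 14 counts, 5.0-fold lower (1.15 to 45.3). Both were under the minimum mean. Fibroblast markers moved along, with summed levels of 583 in the smaller and 2787 in the larger column and none of the 10 at 0 in either. The 8 endothelial markers summed to 133 and 253, with Cdh5 5.57-fold lower in the smaller (3.24 to 10.3). Eng and Vwf went the other way, at 59.8 and 22.6 in the smaller and 12.5 and 1.92 in the larger. Esr1, a marker of hormone-sensing luminal cells, was 33.3-fold higher in the smaller column (23.1 to 49.7). The part of these markers in the differences was not tested. No member passed the adjusted p (0.0274% of all genes did) or an unadjusted p of 0.05 (3.09% did) in the authors' deposited table, and edgeR's exact test at that dispersion called none (2.40% of all genes).

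**Figure D3:**
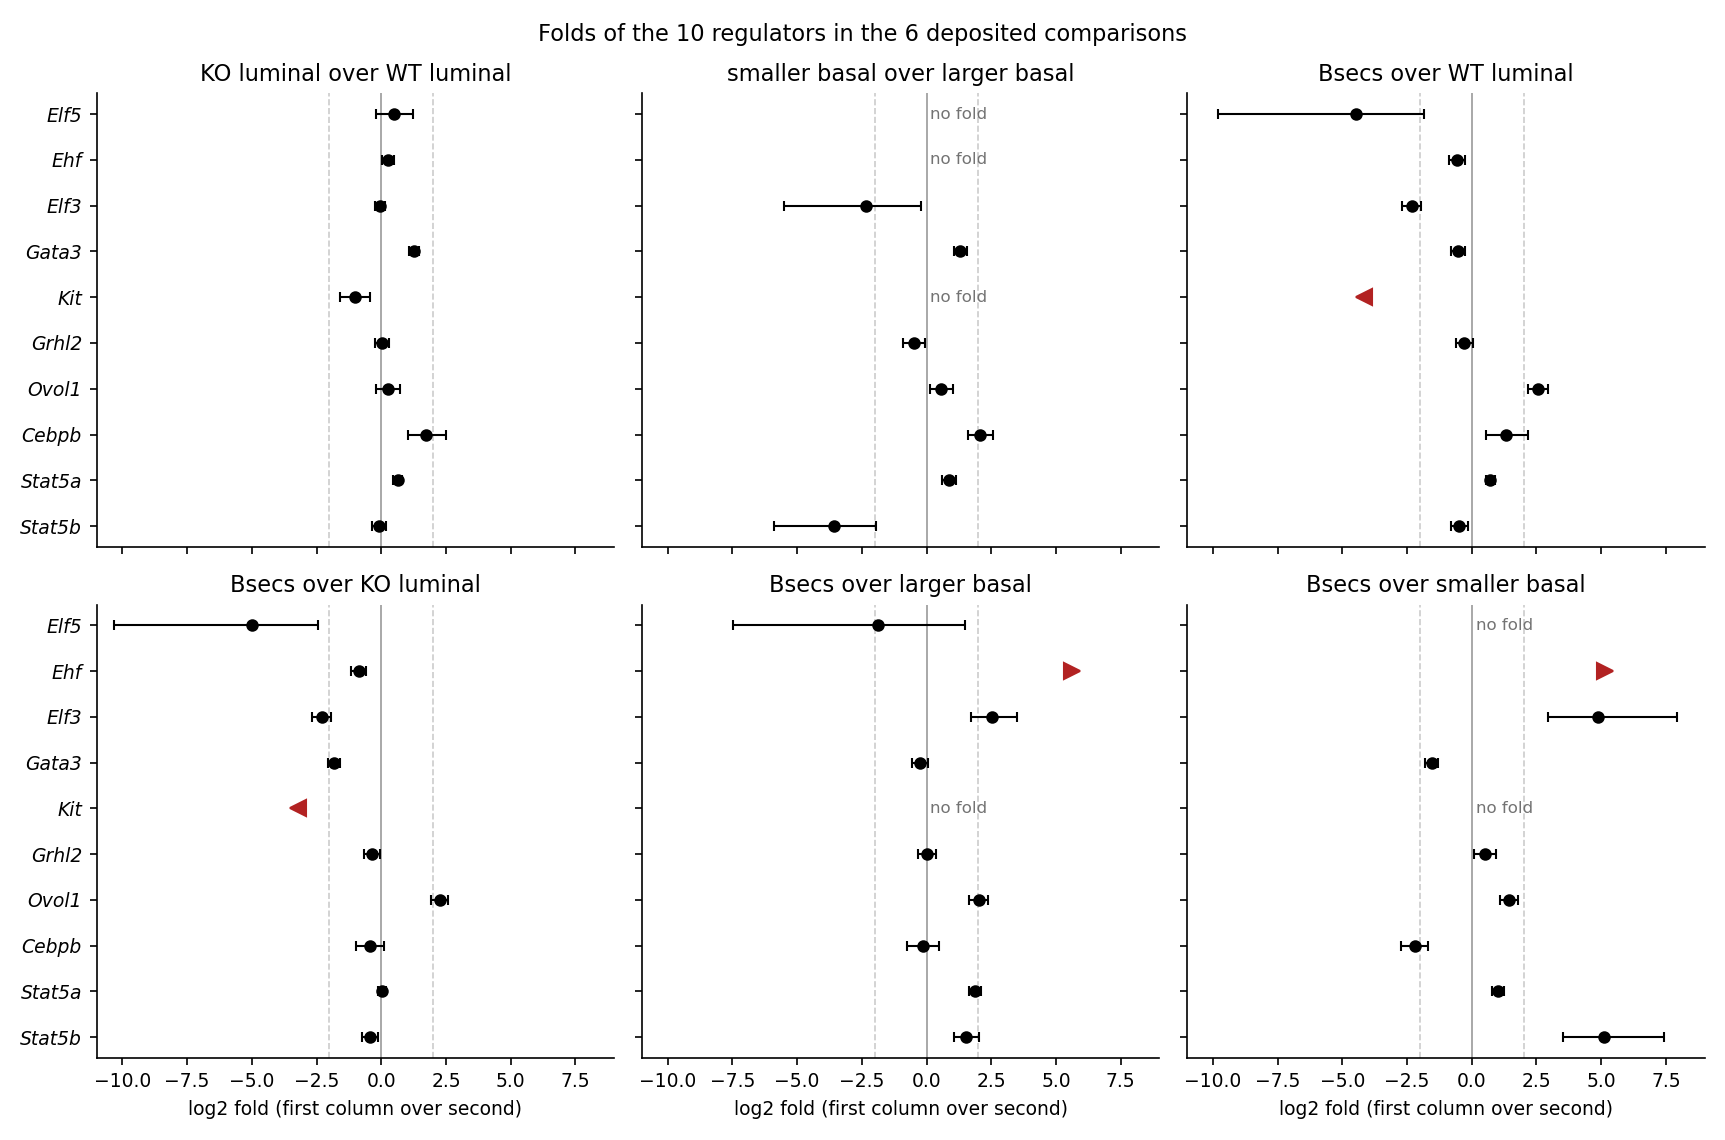
Log2 fold of each of the 10 genes in the 6 deposited comparisons, first named column over second. Points are folds with exact 95% counting intervals, red arrowheads are lower bounds against a count of 0, dashed lines mark 4-fold, and genes with too few counts in both columns have no fold. Ovol1 is to the right of 0 in all 4 comparisons of Bsecs, and the arrowhead of Ehf over the larger basal column is at 49.5-fold.

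Against the luminal columns, Bsecs was low in Elf3, Elf5 and Kit and high in Ovol1. Elf3 had deposited values of 405 in WT luminal and 82.1 in Bsecs, 4.93-fold lower in Bsecs (3.85 to 6.39), and was 4.91-fold lower than in KO luminal (3.85 to 6.35). Kit, at 0 counts in Bsecs, was 18.1-fold lower than in WT luminal and 9.33-fold lower than in KO luminal with the 0 set to 3 counts. The lower limits of its counting intervals were 14.4-fold and 7.26-fold. Elf5, at 1 count, was 21.9-fold lower than in WT luminal (3.62 to 898) and 32-fold lower than in KO luminal (5.48 to 1290). Kit and Elf5 lay below the minimum mean of the size rule in both comparisons. Ovol1 was 5.83-fold higher than in WT luminal (4.45 to 7.74) and 4.76-fold higher than in KO luminal (3.78 to 6.05).

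The other members differed less between Bsecs and the luminal columns. Gata3 was 3.55-fold lower in Bsecs than in KO luminal (3.02 to 4.2) and 1.43-fold lower than in WT luminal (1.18 to 1.74). Ehf was 1.83-fold lower than in KO luminal (1.5 to 2.25) and 1.47-fold lower than in WT luminal (1.19 to 1.83). Cebpb was 2.52-fold higher than in WT luminal (1.46 to 4.47). Stat5a was 1.64-fold higher than in WT luminal on the deposited scale (1.45 to 1.84), but scaling by plain totals moved the log2 fold from 0.71 to -0.01. Both comparisons share the Bsecs column, so they do not count as independent of each other. The summed level of the 14 basal markers was 18914 in Bsecs against 1554 and 1947 in the luminal columns, with none and 1 each of the 14 at 0. That sum rests on the 3 keratins, and Mme went the other way, 375-fold lower in Bsecs than in WT luminal with 1 and 462 counts (adjusted p 0.0329, DESeq p-values of the authors' deposited table, Benjamini-Hochberg). The part of these markers and of the Rn45s share in the differences was not tested.

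By the size rule, 2 members differed in Bsecs from WT luminal, Ovol1 higher and Elf3 lower, beside 18.8% of all genes (9.21% higher and 9.59% lower). The same 2 members differed from KO luminal, beside 16.5% of all genes (6.41% higher and 10.1% lower). With 7 and 8 members at the minimum mean, the members' counts are near the background. With plain totals as the scale, the log2 fold of Ovol1 went from 2.54 to 1.82 over WT luminal and from 2.25 to 1.74 over KO luminal, under 4-fold in both. Gata3 over KO luminal went from -1.83 to -2.34, past 4-fold, so the 2 members counted there were then Elf3 and Gata3. With totals without Rn45s Gata3 was at -2.03 and also past it. The median log2 fold of the 10 genes was -0.49 over WT luminal and -0.65 over KO luminal, beside -0.09 and -0.21 for all genes. No member passed an adjusted p of 0.05 in either comparison (0.210% and 0.0405% of all genes did). The smallest unadjusted p-value in the authors' deposited tables was 0.0232, for Kit over WT luminal, and its DESeq p adjusted by Benjamini-Hochberg was 0.908. Kit was the 1 member under an unadjusted 0.05 there and none was over KO luminal, where 4.29% and 3.82% of all genes were. With edgeR's exact test at an assumed dispersion of 0.16, Elf5 and Kit were called lower in both comparisons and Ovol1 higher over WT luminal only. That test called 13.8% of all genes over WT luminal and 11.1% over KO luminal. The difference between those 2 comparisons was not tested.

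Against the basal columns, Bsecs was high in Ehf, Elf3, Stat5b, Stat5a and Ovol1. Other markers differed between these columns too: 8 of the 14 basal markers were at least 4-fold lower in Bsecs than in either basal column. Of the 10 fibroblast markers, 7 were that much lower relative to the larger basal column and 2 relative to the smaller, with summed levels of 509 in Bsecs, 2787 and 583. The part of these cells in the differences was not tested. Ehf was at least 49.5-fold higher than in the larger and at least 35.4-fold higher than in the smaller basal column. Ehf over the larger basal column was the only case among the 10 genes and 6 comparisons to pass the adjusted p, at 0.0491 in the authors' deposited table after adjusting its DESeq p-values by Benjamini-Hochberg, where 0.480% of all genes passed. Over the smaller basal column its adjusted p from the same kind of table was 0.0955 (DESeq, Benjamini-Hochberg), where 0.759% of all genes passed and no member did.

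Elf3 was 5.81-fold higher in Bsecs relative to the larger basal column (3.26 to 11.2) and 29.1-fold higher than in the smaller (7.79 to 245). Stat5b was 2.90-fold higher than in the larger (2.08 to 4.11) and 34.7-fold higher than in the smaller basal column (11.6 to 170). Stat5a was 3.66-fold (3.11 to 4.32) and 2.01-fold higher (1.74 to 2.34). These 3 genes had their lowest levels in basal columns. Ovol1 was 4.03-fold (3.16 to 5.20) and 2.73-fold higher (2.15 to 3.49). Cebpb and Gata3 went the other way against the smaller basal column, 4.61-fold (3.27 to 6.62) and 2.93-fold (2.44 to 3.52) lower in Bsecs. Against the larger basal column, the counting intervals of Gata3, Cebpb, Grhl2 and Elf5 included 1.

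By the size rule, 2 members were higher in Bsecs relative to the larger basal column (Ehf and Ovol1), beside 15.0% of all genes called in either direction (7.52% higher and 7.45% lower). Ovol1 dropped below 4-fold when totals set the scale. Over the smaller basal column 2 were higher (Ehf and Stat5b) and Cebpb was lower, beside 15.2% of all genes (7.05% higher and 8.11% lower). The median log2 fold was 1.52 over the 9 members measured in the larger and 0.96 over the 10 in the smaller comparison, beside -0.21 and 0.10 for all genes. In the authors' deposited table for the smaller basal column, the unadjusted p-value was 0.00103 for Ehf, 0.00986 for Stat5b and 0.0402 for Elf3. These 3 passed an unadjusted 0.05 there and Ehf alone did over the larger basal column, where 4.91% and 4.61% of all genes passed. edgeR's exact test at the assumed dispersion called those 3 there, beside 10.2% of all genes, and Ehf alone over the larger basal column, beside 8.52%.

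The prolactin pathway upstream of STAT5 was most different at its receptor. Prlr, the prolactin receptor, had 16820 counts in WT luminal, 10771 in KO luminal, 119 in Bsecs, 3 in the smaller basal and 28 in the larger basal column. It was 115-fold lower in Bsecs than in WT luminal (95.9 to 139) and 60.3-fold lower than in KO luminal (50.4 to 72.9). Prlr therefore differed far more between Bsecs and luminal cells than Stat5a or Stat5b did. Jak2, the kinase bound to that receptor, had levels of 708, 940, 822, 301 and 837 in the column order WT luminal, KO luminal, Bsecs, smaller and larger basal.

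Of the STAT5 feedback inhibitors, Socs2 was 6.31-fold higher in Bsecs than in WT luminal (4.28 to 9.60), with 159 and 31 counts. Cish was 5.40-fold lower in Bsecs than in KO luminal (3.66 to 8.24), with 29 and 235 counts. Socs3 had 492 counts in WT luminal, 616 in KO luminal and 95 in Bsecs, and was 4.21-fold (3.37 to 5.30) and 4.32-fold (3.48 to 5.42) lower in Bsecs than in the luminal columns. Socs1 had 0, 3 and 49 counts in those columns, below the minimum mean. Of these 4 inhibitors, 2 had more counts and 2 had fewer in Bsecs than in WT luminal. Erbb4, a receptor that also activates STAT5A, had 179 counts in WT luminal, 89 in KO luminal, 0 in Bsecs, 5 in the smaller basal and 9 in the larger basal column. Of 16 genes in the list, 13 had the mean of at least 50 in either comparison of Bsecs with a luminal column. Of those, 1 was at least 4-fold higher and 3 lower in Bsecs than in WT luminal, and 0 and 3 than in KO luminal. Of all genes, 9.21% were higher and 9.59% lower, and 6.41% and 10.1%. Of the 12 list genes with a mean of at least 50 over each basal column, 3 were higher and 0 lower in Bsecs relative to the larger, and 3 and 1 relative to the smaller. The shares of all genes were 7.52% and 7.45%, and 7.05% and 8.11%. Between the luminal columns none of the list's 12 with that mean reached 4-fold, nor did any of 9 between the basal columns. There Prlr, with 3 and 28 counts, was under that mean. Of all genes, 4.14% and 5.75% reached 4-fold. None of the 16 passed the adjusted p in any comparison. This includes Prlr at 115-fold, so a gene that did not pass is not thereby unchanged.

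Milk protein and secretion genes, known targets of STAT5 and ELF5, were unevenly measured. Csn3, Ltf, Btn1a1, Muc1 and Mfge8 were higher in both luminal columns than in both basal columns. Glycam1 and Xdh had their most counts, 193 and 617, in the larger basal column, and Plin2 overlapped, at levels of 202 in WT luminal, 39.8 in KO luminal, 189 in the smaller basal and 47.1 in the larger basal column. Csn3, kappa casein, had 3931 counts in WT luminal, 900 in KO luminal, 3 in Bsecs, 0 in the smaller basal and 11 in the larger basal column. Ltf, lactoferrin, had 4126, 1208, 4, 25 and 1 counts in the same order. Btn1a1, a protein of the milk fat globule membrane, had 436 and 111 counts in the luminal columns and 0 in the other 3. The casein Csn2 and the whey genes Wap and Lalba had 10 counts or fewer in every column, and Csn1s1 had 21 in WT luminal and 3 or fewer elsewhere.

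Of 14 milk genes, 7 had a mean of at least 50 over the luminal columns, and 4 of these were at least 4-fold lower in KO than in WT luminal (Csn3, Plin2, Btn1a1 and Ltf), beside 1.84% of all genes, and none was higher. Csn3 was 5.48-fold lower (5.10 to 5.90), Plin2, a lipid droplet protein, 5.16-fold (3.83 to 7.06), Btn1a1 4.93-fold (3.99 to 6.13) and Ltf 4.29-fold (4.02 to 4.57). Over the same columns the folds of Elf5 and Stat5a were 1.42 (0.866 to 2.36) and 1.55, on the side of KO luminal. None of the 14 passed the adjusted p there. The list's median log2 fold was -1.59 beside 0.10 for all genes.

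In Bsecs, 5 of the 7 milk genes at the minimum mean were at least 4-fold lower than in WT luminal, and 4 of 5 than in KO luminal, and none was higher. Of all genes 9.59% and 10.1% were lower by that rule. By adjusted p, 3 passed over WT luminal, namely Csn3 (0.0225), Ltf (0.0289) and Btn1a1 (0.0185), and Csn3 and Ltf passed over KO luminal (both 0.0429), all from the DESeq p-values of the authors' deposited tables with Benjamini-Hochberg adjustment. Relative to the larger basal column Glycam1 and Xdh were lower in Bsecs, relative to the smaller Plin2 and Xdh were, each 2 of 3 at that mean, and none passed. Of all genes 7.45% and 8.11% were lower by the size rule there. In the same Bsecs column Elf5 had 1 count and Kit 0, while the level of Stat5a was 673. Csn3 and Ltf are also markers of luminal progenitors, as are Elf5 and Kit. Not all such markers were low in Bsecs. Of a list of 12 that holds Csn3 and Ltf, 9 had the minimum mean in either comparison. By the size rule, 5 were lower in Bsecs than in WT luminal and 6 than in KO luminal, and none was higher. Lif had levels of 2048 in WT luminal, 6072 in KO luminal and 5365 in Bsecs, and Itgb3 had 81.2, 86.8 and 68.5.

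**Figure D4:**
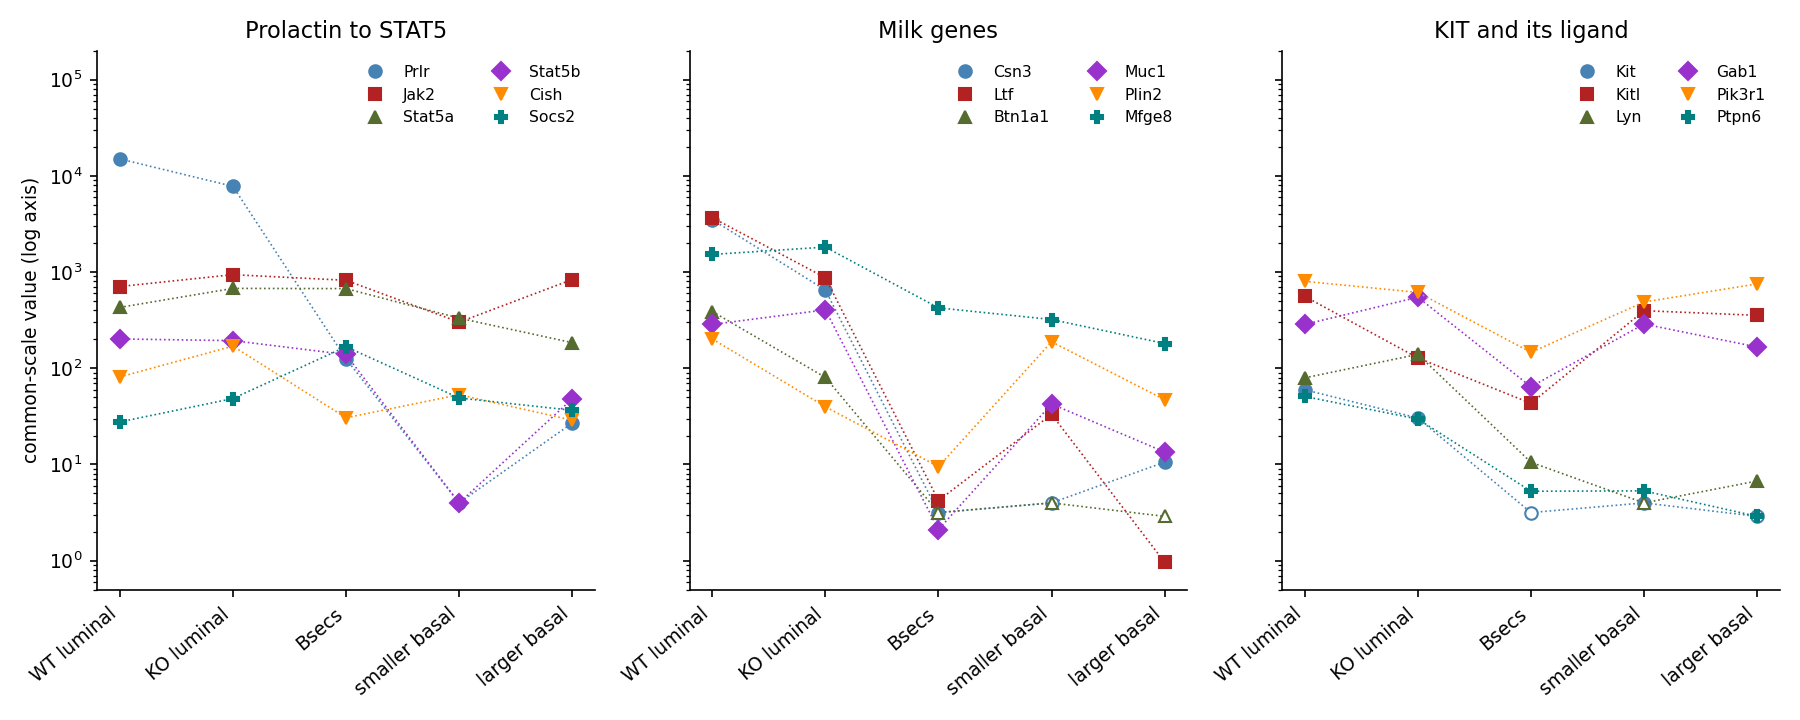
Common-scale level (log axis) in the 5 columns of genes between the prolactin receptor and STAT5 (left), milk genes (middle) and Kit with its ligand and signalling genes (right), chosen for drawing after their values were seen. Points are single columns, open symbols stand at the limit that a count of 0 allows, and dotted lines only join the points of a gene. Prlr has 16820 counts in WT luminal and 119 in Bsecs, while Jak2 and Stat5a stay within the same decade.

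Kitl, the ligand of KIT, was present in the basal columns, where Kit was nearly absent. It had 626 counts in WT luminal, 177 in KO luminal, 41 in Bsecs, 299 in the smaller basal and 369 in the larger basal column. Both basal columns therefore held the ligand with 3 and 0 counts of the receptor, and Bsecs was low in both. Kitl was 4.44-fold lower in KO than in WT luminal (3.75 to 5.28), the same direction as Kit. In Bsecs it was 12.4-fold lower than in WT luminal (9.04 to 17.5), 8.18-fold lower than in the larger (5.92 to 11.6) and 9.26-fold lower than in the smaller basal column (6.67 to 13.2).

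Behind the receptor, the adaptor Gab1 had 320 counts in WT luminal, 758 in KO luminal, 61 in Bsecs, 217 in the smaller basal and 173 in the larger basal column. Pik3r1, a regulatory subunit of PI3 kinase, had 899, 850, 139, 368 and 783 counts in that order. Both were lowest in Bsecs on the common scale. Of the 16 genes of KIT signalling other than Kit, 12 to 14 had a mean of at least 50 in a comparison. By the size rule 1 was lower in KO than in WT luminal, 3 were lower in Bsecs than in each luminal column, and 3 and 2 lower than in the larger and smaller basal column. Of all genes, 1.84% were lower in KO than in WT luminal. In Bsecs, 9.59% and 10.1% were lower than in WT and KO luminal, and 7.45% and 8.11% than in the larger and smaller basal column. None of the 16 with a mean of at least 50 was 4-fold higher in the first column of any of the 6 comparisons. Sh2b3, an adaptor that restrains cytokine signals, had 0 counts in WT luminal, 50 in KO luminal and 82 in Bsecs, and its mean was below 50 in both comparisons with WT luminal. None of the 16 passed the adjusted p.

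Among genes described as targets of GRHL2, Cldn4 and St14 were high in the luminal columns and Bsecs, while Cldn3 and Rab25 were high in the luminal columns and low in Bsecs. Cldn4, a tight junction claudin, had 13795 counts in WT luminal, 37369 in KO luminal, 37070 in Bsecs, 4 in the smaller basal and 374 in the larger basal column. St14, the protease matriptase, had 877, 2010, 1123, 38 and 103 counts. Cldn3, another claudin, had levels of 251 and 539 in the luminal columns, 24.2 in Bsecs and at most 0.96 in the basal columns. Rab25, a GTPase of membrane transport, had 256 and 223, 27.4 and at most 5.31. Grhl2 itself had a range of 1.89-fold over those columns, so Cldn4 and St14 varied far more than it did. The list that holds these targets also holds mesenchymal genes, such as Vim, Tgfb2 and Zeb2, and the relatives Grhl1, Grhl3 and Ovol2. Its counts therefore mix different kinds of genes. Of its 16 genes, 9 to 11 had a mean of at least 50 in a comparison. Of these, 5 were at least 4-fold higher and 2 lower in Bsecs relative to the larger basal column, and 6 and 1 relative to the smaller. Over WT luminal 2 were higher (Vim and Tgfb2) and 2 lower (Cldn3 and Rab25), and over KO luminal 1 was higher (Vim) and the same 2 lower. Of all genes, 7.52% were higher and 7.45% lower relative to the larger basal column, and 7.05% and 8.11% relative to the smaller. Over WT luminal the shares were 9.21% and 9.59%, and over KO luminal 6.41% and 10.1%.

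Vim, vimentin, and Tgfb2 are in the list as mesenchymal genes that OVOL factors repress. Vim had 3 counts in WT luminal, 16 in KO luminal, 113 in Bsecs, 495 in the smaller basal and 695 in the larger basal column. Tgfb2 had 211, 563, 1343, 223 and 235 counts, so like Ovol1 it was highest in Bsecs. Between the basal columns Cldn4 was 66.8-fold lower in the smaller (25.9 to 246), and this was the only gene of the list past the adjusted p in any comparison, at 0.0123 (DESeq p-values of the authors' deposited table, Benjamini-Hochberg). Cldn4 in Bsecs over the smaller basal column, with 37070 and 4 counts, was 7299-fold higher and did not pass. Passing therefore does not rank the genes by size of difference.

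Mast cells and lymphocytes, which express some of these regulators outside the epithelium, left few reads. Mast cells express Kit: their 10 markers summed to 9.82 in WT luminal and 7.23 in KO luminal and to 0 in the other 3 columns, with 7, 6, 10, 10 and 10 of them at 0. The defining markers Cpa3 and Ms4a2 were at 0 everywhere. T cells and innate lymphoid cells express Gata3: the 15 leukocyte markers summed to 82.1, 143, 87.4, 73.0 and 105, with 8 to 11 of them at 0. The T cell genes Cd3d, Cd3e, Cd3g and Cd8a were at 0 in every column. Others of the list were not: Lck had 0, 0, 39, 0 and 10 counts and Thy1 0, 21, 29, 27 and 83, in the order WT luminal, KO luminal, Bsecs, smaller and larger basal. Of the myeloid markers, Csf1r was at 15.2 in WT luminal and 54.9 in KO luminal and Cd68 at 56.2 and 59.3. Itgam and Lyz2 were at most 8.03 in those columns. The 10 fibroblast markers summed to 819, 1009, 509, 583 and 2787 in the same column order. In the luminal columns nearly all of the sum was 1 gene, Dcn, at 775 and 983. Col1a2 and Fbln1 were at 0 in WT luminal and Col1a1 was at 0 in KO luminal. The list's median log2 fold was 1.42 in Bsecs over WT luminal and 2.68 over KO luminal, so the sums and the medians differ in direction. Krt14, a keratin of basal cells, had 54 counts in WT luminal and 298 in KO luminal, 4.40-fold higher in KO luminal (3.28 to 5.99), and Krt17 was 4.34-fold higher (3.45 to 5.52). Mme, another basal marker, went the other way, with 462 and 88 counts, 6.59-fold lower in KO luminal (5.24 to 8.37), and the 14 basal markers summed to 1554 and 1947. The part of these basal, fibroblast and leukocyte markers in the Gata3 and Cebpb differences of the luminal columns was not tested.

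For each of the 10 genes, the 3 genes of most similar profile were found among 6333 genes with a mean level of at least 50. Likeness was the root-mean-square difference of centred log2 profiles over the 5 columns, where 0 is identical shape. Nearest to Elf5 was Notch3 (0.15), to Ehf Sgsm1 (0.31), to Elf3 Podxl (0.22), to Gata3 Srebf1 (0.15) and to Kit Bcl2l14 (0.47). Nearest to Grhl2 was Npc1 (0.07), to Ovol1 Luc7l3 (0.13), to Cebpb Mbd3 (0.20), to Stat5a Wipf2 (0.11) and to Stat5b Tmem30b (0.31).

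The other near profiles were Mtmr7 and Chrnb1 for Elf5, Grb7 and Sptlc3 for Ehf, Arrdc1 and Tead2 for Elf3, and Pura and Sbno2 for Gata3. For Kit they were Slc44a3 and Arg2, for Grhl2 Grpel2 and Whsc1l1, and for Ovol1 Exosc2 and Eif4a1. For Cebpb they were Plcb1 and Bin1, for Stat5a Bid and Cyr61, and for Stat5b Esrp2 and Nckap5. None of the 10 was among the 3 nearest of another. The smallest distance between members was that of Grhl2 and Stat5a, both of narrow range, at 0.64, where Stat5a ranked 2221 from Grhl2. The best rank was that of Elf3 from Ehf, 82, at a distance of 1.56, followed by Stat5b from Elf3, 107, at 1.08. Elf5 and Kit were below the mean level needed to be ranked. Stat5a and Stat5b were 1.76 apart, with Stat5a at rank 1208 from Stat5b. With only 5 columns, many genes take a similar shape, and these distances are a description.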

How the data were processed

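RNA of FACS-sorted cells was extracted with TRIzol, amplified with the Ovation RNA-seq V2 system and made into Ovation Ultralow DR libraries, per the labels' protocols. STAR, DESeq and the build mm9 are named, per the submitters' processing notes. The sources used here give no versions, read counter, annotation or strand setting.

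For 24000 genes, 6 comparison tables deposited by the authors give the mean normalised signal of either group and a DESeq p-value. Of per-sample columns there were 0. In every column of the deposited signal, 100% of the values were whole multiples of 1 step within 0.01, so whole read counts were recovered. The p-values in the deposited tables thus compare 1 column with 1 column and hold no spread between replicates, and it is not given whether a column combines the 2 libraries of a group. They were adjusted here by Benjamini-Hochberg over all genes of a table, at 0.05. Some very large folds of abundant genes, such as those of Prlr and Cldn4 in Bsecs, did not pass.

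The members, the lists of related genes and the rules were chosen with earlier results of these data known. Named genes followed a rule: all 10 members, Bptf, up to 4 genes per list and comparison with the largest fold past 4-fold at a mean value of at least 50, and the 3 nearest profiles per member. Jak2, Csn2, Wap, Lalba, single markers and drawn genes outside that rule were chosen after their values were seen. Folds use the scale of each table with Clopper-Pearson 95% intervals, and levels use median-of-ratios factors over 9789 genes. For a fold against a count of 0, the 0 was set to 3 counts, which is not the lower limit of the counting interval. Without molecular identifiers reads are no independent molecules, and intervals cover counting error only. Dates had replaced 23 symbols and 4 rows repeated a symbol, and none of these is a member. edgeR 4.0.16 (R 4.3.3) ran an exact test on the recovered counts as an alternative, with an assumed dispersion of 0.16, and called 226 genes between the luminal columns, 350 between the basal columns and 1276 to 1975 in the comparisons of Bsecs. Other scales, minimum means, folds and pseudocounts were tried. Python 3.11.15, pandas 2.3.3, scipy 1.17.1 and biopython 1.88 were used, and the steps were tested on simulated data. Exon lengths and overlaps are from GENCODE M21.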

Additional observations from a re-analysis of the deposited data

How the results depend on the processing

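Leaving out each replicate was not run and No paired analysis was possible because the deposited columns hold no value per library. Changing the scale shifts every log2 fold of a comparison by 1 constant, which for plain totals was -0.72 for Bsecs over WT luminal and -0.77 over the larger basal column, so such moves follow from the scale itself. The number of members past 4-fold between the basal columns, 1 as reported, was 0 with totals without Rn45s, plain totals or TMM factors, 2 at a minimum mean of 10, 3 with none and 2 at 2-fold. Between the luminal columns it went from 0 to 3 at 2-fold. For Bsecs over WT luminal it went from 2 to 1 with plain totals and to 4 at a minimum of 10 or none. Over KO luminal it went from 2 to 4 at a minimum of 10 or none, over the larger basal column from 2 to 1 with totals without Rn45s or plain totals and to 4 at 2-fold, and over the smaller basal column from 3 to 6 at 2-fold. Members past the adjusted p went from 0 to 3 (Bsecs over WT luminal), 2 (over KO luminal) and 3 (over the smaller basal column) with edgeR's exact test, whose dispersion was assumed. Members higher in Bsecs than in KO luminal went from 2 to 1 with either kind of total. Genes with both luminal columns 4-fold above both basal columns went from 3 to 5 at a minimum of 10 or none, by adding Elf5 and Kit. Leaving out any 1 of those 4 columns, chosen after seeing the data, kept Ehf, Elf3 and Stat5b. That check could not lower the fold, because the rule sets the lowest luminal against the highest basal value, so it does not show stability. Of these counts 56 stayed within 1.5 times, 23 moved, and of 165 settings of single folds 38 moved by more than their counting interval and no called fold reversed. Columns of 2036681 to 3840462 counts leave Elf5, Kit and the basal values of Ehf, Elf3 and Stat5b poorly measured.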

Other observations

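Relatives of the 10 regulators in the same families were also measured, and several were as unevenly spread over the columns. Grhl1 had 138 counts in WT luminal, 278 in KO luminal, 114 in Bsecs, 6 in the smaller basal and 20 in the larger basal column, and was 6.27-fold higher in Bsecs than in the larger (3.88 to 10.7) and 15.0-fold higher than in the smaller basal column (6.67 to 41.6). Grhl3 had 66 counts in Bsecs, 21 in WT luminal, 6 in KO luminal and 0 in both basal columns, so both Grhl1 and Grhl3 were luminal or Bsecs genes here while Grhl2 was present throughout. Ovol2, the paralog of Ovol1, had at most 5 counts in any column. Like Cebpb, Cebpd was highest in the smaller basal column, but it was lowest in Bsecs, with levels of 72.3 in WT luminal, 138 in KO luminal, 52.7 in Bsecs, 701 in the smaller basal and 196 in the larger basal column. Among the other GATA factors, Gata1, Gata2 and Gata4 were at 0 in every column and Gata6 had 2 counts in 1.

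Stat3 was the most abundant STAT gene by counts in every column, with 1559 in WT luminal, 2760 in KO luminal, 682 in Bsecs, 2299 in the smaller basal and 2049 in the larger basal column. Bsecs was the only column with nearly equal counts of Stat3 and Stat5a, 682 and 639. Of the other ETS factors, Ets2 had levels of 1906 and 2801 in the luminal columns, 1330 in Bsecs, 291 in the smaller basal and 381 in the larger basal column, and it was 4.54-fold higher in Bsecs than in the smaller basal column (3.93 to 5.27). Ets1 stayed between 582 and 1070 over all 5. None of the 16 ETS relatives and 17 relatives of the other families passed the adjusted p in any of the 6 comparisons.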
